A study of Mus musculus with 12 samples.

Results

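Livers of mice given Eleutheroside E (EE), a plant lignan glycoside, after a steatohepatitis diet were compared with livers of mice kept on chow, to see what still differed from chow at the end of dosing. The comparison holds 6 of the 12 livers of the series, 3 in each group, picked by their labels, with every gene that passed a low-count filter (13988 of 28036). All mice were C57BL/6J, an inbred laboratory strain, and the labels give neither age nor sex. EE mice had metabolic dysfunction-associated steatohepatitis (MASH) set up by a high-fat diet over 8 weeks and then took EE by mouth at 100 mg/kg for 4 weeks. Control mice ate normal chow and took the vehicle, 0.5% CMC-Na, by mouth for the same 4 weeks. The MASH livers, 3 in number, had the high-fat diet and the vehicle, and their levels are given as that group's own, with no test against them. The other 3 livers of the series, from high-fat diet mice given resmetirom at 3 mg/kg, were not compared here. They entered the low-count filter, the scaling of the levels and the shared estimate of spread. The labels do not say whether the high-fat diet went on during dosing, and EE and control mice differ in diet as well as drug, so the effects of diet and drug cannot be told apart here.

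The liver clears drugs, steroids and bile acids with cytochrome P450, glucuronosyltransferase and glutathione transferase enzymes, many of which are induced through the nuclear receptors PXR and CAR. It also makes, elongates, stores, burns and exports fatty acids, and its hepatocytes secrete acute phase and complement proteins and answer interferon with antiviral genes. A high-fat diet is known to shift many of these programs in mouse liver, and the comparison shows which of them stood apart from chow in EE livers.

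The library totals were 19630570, 18977717 and 18057636 counts in EE livers, against 19600116, 21793311 and 17302701 counts in control livers. Levels are CPM, a gene's counts relative to the library total after edgeR's TMM scaling, and values within a group are always given in the order of replicates 1, 2 and 3. The TMM factor was 0.51 in control 1 and 0.96 to 1.14 in the other 5 livers. A low factor raises scaled CPM, so levels and sums in control 1 are high relative to its share of all counts. Control 1 stood apart from every other liver. The 13 mitochondrially encoded genes took 3.73%, 2.56% and 2.35% of the counts in EE livers, against 34.9%, 4.18% and 4.32% in control livers (exact permutation test, two-sided, p = 0.1, the smallest that 3 against 3 allows, and 0.2 without control 1). Log2 levels across genes correlated at 0.987 to 0.988 between EE livers and at 0.991 between control 2 and control 3, but at 0.900 and 0.898 between control 1 and the other controls. The summed erythroid markers stood at 3760 CPM in control 1 and 483 to 904 CPM in the other 5 livers, and the summed Kupffer cell markers at 326 against 716 to 1120 CPM. The summed cytosolic ribosomal protein genes stood at 16500 against 8380 to 9690 CPM, a gap that carries the TMM factor of control 1. Platelet (19 against 1.48 to 2.49 CPM), neutrophil (22.6 against 1.61 to 3.70 CPM) and B cell markers (68.9 against 8.89 to 17.2 CPM) were also highest in control 1. The 13 tested hepatocyte markers summed to 132000 to 139000 CPM in EE livers and 110000 to 181000 CPM in control livers, so all 6 libraries carried the RNA of the labelled tissue. In bulk tissue, fewer cells of a type and less RNA per cell cannot be told apart. Results are therefore given with and without control 1, and the part of control 1's composition in the results was not tested beyond that.

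Several called genes were drug-metabolizing enzymes, and the 250 bases upstream of the RefSeq start (GRCm38.p6) are shown for 4 of them and for an antiviral gene, because the results turn on these genes. Capitals mark matches on either strand to AGGTCA or AGTTCA, half-sites of nuclear receptors such as PXR and CAR, and for Oas1a to GAAA and GAAAC with 2 bases between, the core of the interferon-stimulated response element. The windows are chr19:39006769-39007018 (+ strand) for Cyp2c55, chr5:146079008-146079257 (+ strand) for Cyp3a59, chr5:146009618-146009867 (− strand) for Cyp3a25, chr5:145879855-145880104 (− strand) for Cyp3a11 and chr5:120907526-120907775 (− strand) for Oas1a, each written 5′ to 3′ on the gene's own strand.
Cyp2c55: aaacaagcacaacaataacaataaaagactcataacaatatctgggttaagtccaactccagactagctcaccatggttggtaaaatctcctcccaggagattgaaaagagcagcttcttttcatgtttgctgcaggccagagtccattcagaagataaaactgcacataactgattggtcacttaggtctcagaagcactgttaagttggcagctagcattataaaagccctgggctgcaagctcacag
Cyp3a59: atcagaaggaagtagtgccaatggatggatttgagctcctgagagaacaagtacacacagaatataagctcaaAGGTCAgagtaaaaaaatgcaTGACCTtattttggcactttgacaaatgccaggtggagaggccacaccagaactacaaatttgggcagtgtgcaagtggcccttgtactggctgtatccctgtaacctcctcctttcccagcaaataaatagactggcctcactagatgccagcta
Cyp3a25: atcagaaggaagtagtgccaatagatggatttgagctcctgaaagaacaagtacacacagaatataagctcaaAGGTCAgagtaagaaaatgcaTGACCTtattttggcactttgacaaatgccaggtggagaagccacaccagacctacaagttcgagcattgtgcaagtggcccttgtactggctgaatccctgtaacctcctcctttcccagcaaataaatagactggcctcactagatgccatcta
Cyp3a11: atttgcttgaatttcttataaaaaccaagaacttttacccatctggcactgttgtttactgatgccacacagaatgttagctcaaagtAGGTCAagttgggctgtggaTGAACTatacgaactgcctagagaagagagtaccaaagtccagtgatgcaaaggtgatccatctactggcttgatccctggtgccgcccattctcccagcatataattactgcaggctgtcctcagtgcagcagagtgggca
Oas1a: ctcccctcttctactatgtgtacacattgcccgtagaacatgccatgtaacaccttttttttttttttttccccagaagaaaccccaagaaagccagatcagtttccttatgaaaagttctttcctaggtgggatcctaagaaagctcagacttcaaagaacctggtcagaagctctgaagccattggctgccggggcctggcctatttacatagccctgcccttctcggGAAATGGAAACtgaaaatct
The Cyp3a59 and Cyp3a25 windows differ at 11 of 250 positions, so these neighbours are near copies also upstream. AGGTCA was found in 4607 of all 32851 RefSeq windows of this length (14%), in 13.5% of the 9814 genes with a window that were tested in the 5 livers described below, and in 31.5% of 54 tested drug metabolism genes (17 genes). AGTTCA was found in 11.8% of all windows and the paired GAAA motif in 0.685%. Cyp2c55 had no match in the window. A match describes the letters only.

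Few genes passed edgeR with all 12 livers or with control 1 left out, and those that passed were lower in EE livers. With all 12 livers in 1 fit, 14 of 13988 genes (0.1%) had an edgeR adjusted p below 0.05, and 0 were higher (2257 genes in either direction had an unadjusted p below 0.05). With control 1 left out, 13 of 14299 genes (0.0909%) passed, again all lower, with 2029 at an unadjusted p below 0.05. The fits shared 10 genes, which is 71.4% of the first list and 76.9% of the second, and together they named 17. In 15 of the 17 genes every EE liver lay below every control liver, against 13.5% of all tested genes. The exceptions were Rb1cc1 and Tbc1d8, which overlapped through control 1. The count with all livers was 1 without EE 1 and 0 without EE 2, EE 3, control 2 or control 3, 3 without MASH 1, 2 without MASH 2 or resmetirom 3, 69 without resmetirom 1 and 36 without resmetirom 2. With control 1 left out it was 0 without any further EE or control liver, 1 without MASH 1 or MASH 2, 4 without resmetirom 3, 272 without resmetirom 1 and 589 without resmetirom 2. Other settings also called genes higher in EE livers: with all livers, DESeq2 gave 105 higher and 484 lower, voom with quality weights 959 higher and 1601 lower, and edgeR gave 10 higher and 59 lower when resmetirom 1 was left out.

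Among the 17 were 3 detoxifying enzymes and an enzyme of fatty acid synthesis. Cyp2c55, a P450 of fatty acid and drug metabolism, stood at 0.719, 0.544 and 0.75 CPM in EE livers, against 6.23, 9.89 and 8.73 CPM in control livers. For Cyp2c55 the log2 fold change was −3.62 ± 0.39 SE (adjusted p = 0.0111) with all 12 livers and −3.77 ± 0.39 SE (adjusted p = 0.0123) without control 1. No EE liver reached a control liver, and the MASH livers lay just above the EE livers, at 0.946, 1.13 and 0.82 CPM. Cyp3a59, a P450 of the subfamily that oxidizes many drugs and steroids, stood at 7.44, 3.38 and 5.08 CPM in EE livers, against 36, 31.1 and 30.3 CPM in control livers. For Cyp3a59 the log2 fold change was −2.61 ± 0.31 SE (adjusted p = 0.0178) with all 12 livers and −2.52 ± 0.33 SE (adjusted p = 0.0383) without control 1. Control 1 was at least as high as the other controls, and the MASH livers stood at 11.6, 7.82 and 12.3 CPM. Gsta2, a glutathione transferase that conjugates reactive compounds, stood at 5.44, 4.08 and 6.12 CPM in EE livers, against 56.7, 25.7 and 32.5 CPM in control livers. For Gsta2 the log2 fold change was −2.87 ± 0.45 SE (adjusted p = 0.0387) with all 12 livers and −2.47 ± 0.42 SE (adjusted p = 0.0656) without control 1. The groups were far apart with or without control 1, although the call needed it, and the MASH livers stood at 7.9, 4.6 and 10.3 CPM. Elovl6, the elongase that turns palmitate into stearate, stood at 44.6, 39.7 and 37.1 CPM in EE livers, against 87.3, 139 and 90.04 CPM in control livers. For Elovl6 the log2 fold change was −1.38 ± 0.22 SE (adjusted p = 0.0387) with all 12 livers and −1.49 ± 0.20 SE (adjusted p = 0.0383) without control 1. Here the MASH livers, at 76, 96.2 and 94.6 CPM, lay above every EE liver, and MASH 1 below every control. Near-identical neighbours of the Cyp3a and Gsta families can share reads, so the split of counts within a family is uncertain.

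Snhg11, a noncoding host gene of small nucleolar RNAs, stood at 0.257, 0.163 and 0.0577 CPM in EE livers, against 13.2, 3.55 and 2.99 CPM in control livers, from 9 counts in EE livers and 274 in control livers. For Snhg11 the log2 fold change was −5.27 ± 0.81 SE (adjusted p = 0.0387) with all 12 livers and −4.28 ± 0.66 SE (adjusted p = 0.0484) without control 1. Every control liver was above every EE liver, control 1 most of all, and the MASH livers stood at 0.473, 0.794 and 1.13 CPM. The other 12 called genes follow with what each protein is known for, where that is established. Fgd4, an exchange factor for the small GTPase CDC42, stood at 4.67, 3.59 and 3.17 CPM in EE livers, against 13.2, 12.6 and 11.9 CPM in control livers. For Fgd4 the log2 fold change was −1.71 ± 0.23 SE (adjusted p = 0.0316) with all 12 livers and −1.66 ± 0.24 SE (adjusted p = 0.0383) without control 1. Fam208a, a subunit of the HUSH silencing complex, stood at 8.93, 8.22 and 8.08 CPM in EE livers, against 21.9, 19.2 and 21.4 CPM in control livers. For Fam208a the log2 fold change was −1.31 ± 0.18 SE (adjusted p = 0.0316) with all 12 livers and −1.26 ± 0.18 SE (adjusted p = 0.0383) without control 1. Rock1, a kinase of the actin cytoskeleton, stood at 8.11, 6.42 and 4.85 CPM in EE livers, against 32.8, 17.8 and 18.2 CPM in control livers. For Rock1 the log2 fold change was −1.82 ± 0.28 SE (adjusted p = 0.0387) with all 12 livers and −1.46 ± 0.22 SE (adjusted p = 0.0484) without control 1. In these 3 genes the MASH livers lay between the groups, for example at 10.6, 8.41 and 6.56 CPM for Fgd4. Phip (bromodomain protein), Zfp654 (zinc finger protein) and the endosome tether Eea1, which was named after its values were seen, passed with all livers and not without control 1 (adjusted p = 0.0693, 0.0619 and 0.0527). Pcmtd1, Hook3, a motor adaptor on microtubules, and Nbeal1 passed with and without control 1 (without control 1, −1.26, −1.52 and −1.75 on the log2 scale). Tmem106b, a lysosomal membrane protein, Rb1cc1, which starts autophagosome formation, and Tbc1d8, a Rab GTPase regulator, passed only without control 1 (adjusted p = 0.0744, 0.175 and 0.246 with it). Tbc1d8 stood at 8.57, 10.4 and 9.23 CPM in EE livers, against 6.33, 25.7 and 23.1 CPM in control livers, and the MASH livers, at 7.14, 6.57 and 8.28 CPM, were below every EE liver.

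**Figure D1:**
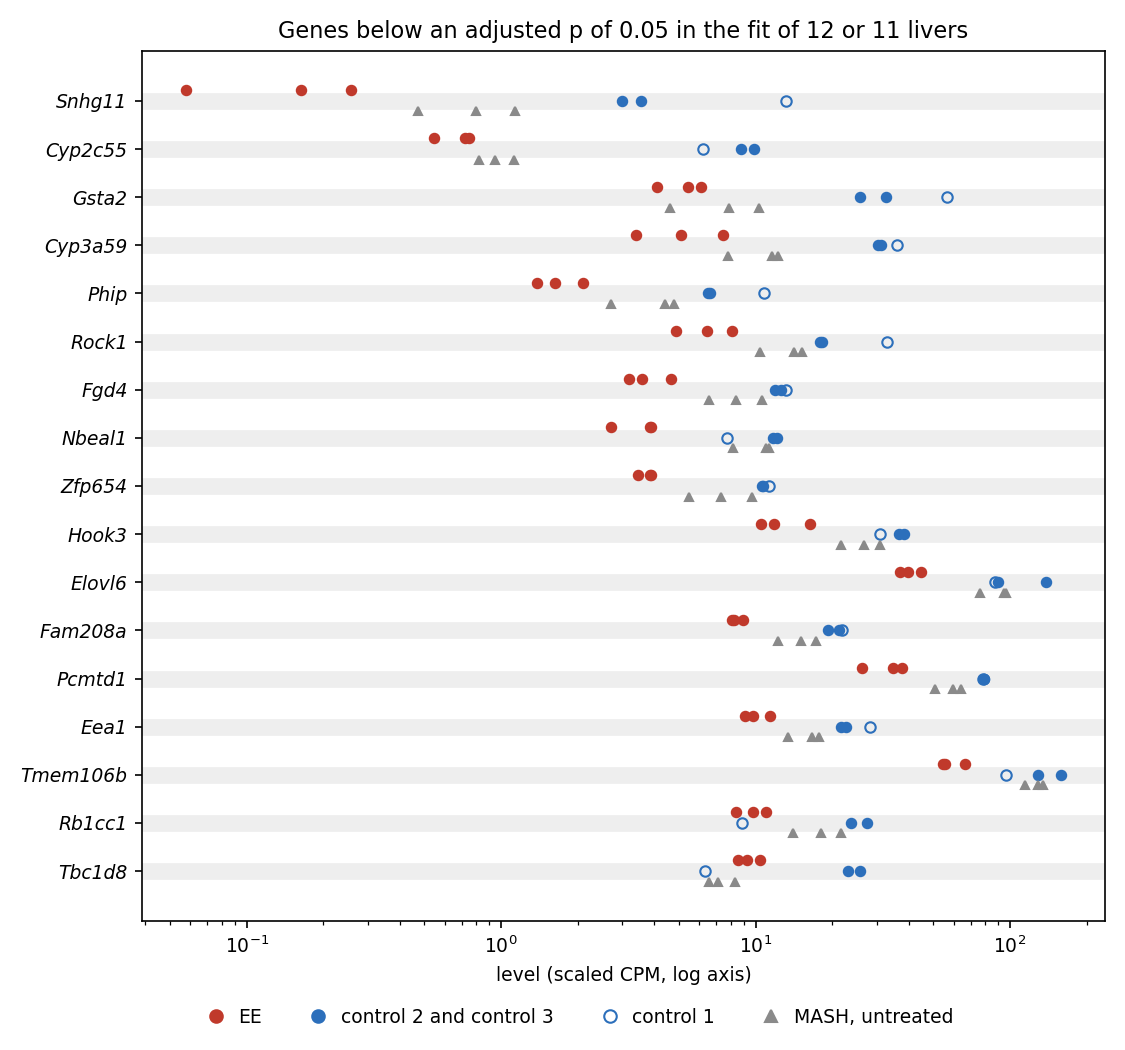
Level of the 17 genes that passed with 12 or 11 livers, in scaled CPM on a log axis, each symbol 1 liver (red, EE; blue, control 2 and control 3; open, control 1; grey, MASH). EE livers lie left of control livers except in Rb1cc1 and Tbc1d8, where control 1 falls among or below them.

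The called genes had longer transcripts than tested genes at large. The median transcript length was 6350.5 bases for the 14 genes called with control 1 and 6002 bases for the 13 called without it, against 3274.5 and 3264 bases over all tested genes. Their median GC content was 39.6% and 39.1%, against 49.4% over all tested genes. The level in a liver was also set against the mean of the 11 livers other than control 1, resmetirom livers included. Across genes, this relative level moved with transcript length by −0.06, −0.05 and −0.03 log2 units per doubling in EE livers, against −0.25, 0.06 and 0.08 in control livers. It moved with GC content by −0.01, 0.04 and 0.15 log2 units per 10 percentage points in EE livers, against −0.15, −0.23 and −0.18 in control livers. With offsets for length and GC content, 1 gene, Cyp2c55, passed with 12 livers as well as with 11. Cyp2c55, Cyp3a59 and Gsta2 have transcripts of 1995, 1990 and 870 bases, while Nbeal1, Hook3, Phip and Fgd4 have 15731, 12836, 10756 and 8342 bases. The part of length and GC content in the calls of the long genes was not tested beyond these offsets.

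When only EE livers, control 2 and control 3 were fitted, without the MASH and resmetirom livers, many more genes passed. Of 13305 genes, 1682 passed (12.6%), with 617 higher (4.64%) and 1065 lower (8.00%) in EE livers, including all 17 named above. The 5 livers leave 3 residual degrees of freedom and a biological coefficient of variation of 0.159, against 0.273 with 11 livers and 0.334 with 12. When control 1 was kept in a fit of only the EE and control livers, 0 genes passed edgeR (1895 had an unadjusted p below 0.05). With offsets for length and GC content, the 5 livers gave 382 of 12786 genes (2.99%), 223 higher (1.74%) and 159 lower (1.24%). Of these, 272 were also called without offsets (122 higher and 150 lower). Of the 14 genes called with 12 livers, 11 passed with offsets, and Hook3, Fam208a and Zfp654 did not (adjusted p = 0.0523, 0.0628 and 0.0619). The log2 fold changes of the long genes Fgd4, Hook3 and Nbeal1 went from −1.68, −1.54 and −1.77 to −0.79, −0.70 and −0.80 with offsets. Those of Cyp2c55 and Gsta2 went from −3.79 and −2.48 to −3.57 and −2.57. Without scaling factors, 170 genes were higher and 2125 lower in the 5 livers, and the median log2 fold change of all genes was −0.20 in place of −0.01. The count rested on the controls, being 156 without control 2 and 70 without control 3, with 973 without EE 2, 736 without EE 3 and 2043 without EE 1. The fit of these 5 livers was planned as an alternative setting and not as a main result. Results from here on are from these 5 livers, followed by the log2 fold change with offsets and with all 12 livers. A call is said to be lost where leaving out 1 of the 5 livers ends it. For a gene list, the share of tested members called is set beside the share of all genes called in the same direction.

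**Figure D2:**
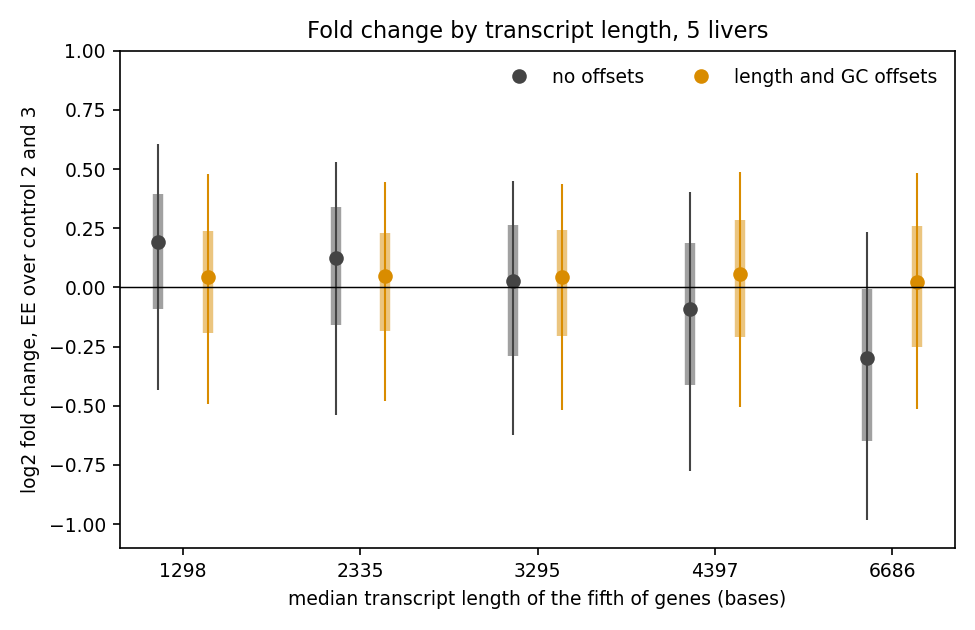
Log2 fold change of EE over control 2 and control 3 in 5 equal groups of genes by transcript length (x axis, the median length of each group in bases), with the median as a point, the interquartile range as a thick bar and the interdecile range as a thin line. Without offsets (grey) the median is 0.19 in the shortest group and −0.30 in the longest, and with length and GC offsets (orange) it lies between 0.02 and 0.06 in all 5.

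Several drug-metabolizing enzymes were lower in EE livers, Cyp3a11, Cyp3a59 and Cyp3a25 of the Cyp3a subfamily among them. Of 63 tested enzymes and transporters, 13 were lower (20.6%, against 8.00% of all genes) and 3 higher (4.76%, against 4.64%), with a median log2 fold change of −0.13, against −0.01 over all genes. With offsets 7 were lower (11.1%, against 1.24%), all of them also lower without offsets, and 1, Cyp3a13, was higher (1.59%, against 1.74%). The median with offsets was 0.02, against 0.04 over all genes. With 12 livers 2 of 63 had been called and with 11 livers 2 of 65, Cyp2c55 and Cyp3a59. Cyp3a11, the main P450 of its subfamily in mouse liver and a classic PXR target, stood at 314, 181 and 256 CPM in EE livers, against 2214, 4025 and 3955 CPM in control livers. For Cyp3a11 the log2 fold change was −4.00 ± 0.22 SE (adjusted p = 0.00129, at most 0.0233 with any 1 liver left out). With offsets Cyp3a11 had −3.65 (adjusted p = 0.00121), and with control 1 among all 12 livers −3.76 (adjusted p = 0.0833). Control 1 also lay far above every EE liver, and the MASH livers stood at 677, 350.0 and 369 CPM, just above the EE livers. Cyp3a25 stood at 226, 163 and 213 CPM in EE livers, against 732, 429.6 and 503 CPM in control livers. For Cyp3a25 the log2 fold change was −1.22 ± 0.15 SE (adjusted p = 0.00674, lost without control 3, with an adjusted p up to 0.0534). With offsets Cyp3a25 had −0.89 (adjusted p = 0.0423), and with control 1 among all 12 livers −1.47 (adjusted p = 0.0674). All controls were above all EE livers, and the MASH livers, at 296, 249.9 and 266 CPM, were near the EE livers. Cyp2b10, the model target of CAR, stood at 0.205, 0 and 0.346 CPM in EE livers, against 0.301, 1.99 and 2.84 CPM in control livers, with control 1 among the EE livers. For Cyp2b10 the log2 fold change was −3.68 ± 0.65 SE (adjusted p = 0.015, lost without control 2 or control 3, with an adjusted p up to 0.111). With offsets Cyp2b10 had −3.84 (adjusted p = 0.0328), and it did not pass the low-count filter with 12 livers. Cyp2b9, its paralog, stood at 1.23, 0.218 and 1.27 CPM in EE livers, against 0.603, 0 and 0.152 CPM in control livers, and did not pass (adjusted p = 0.0769). The MASH livers stood at 39, 3.6 and 79.2 CPM, all above every EE liver. The other genes called lower were Fmo2, Ugt1a9, Ces2a, Cyp2c29, Ugt2b35, Sult1d1, Ugt2b34 and Ugt2b5, which oxidize, hydrolyse or conjugate foreign compounds, and those called higher were Ces3a, Cyp2e1 and Cyp2d40. Of the 13 genes called lower, all of which have a RefSeq window, 9 held AGGTCA (69.2%), among them the near-identical pair Cyp3a59 and Cyp3a25 printed above. The share was 31.5% in the 54 tested drug metabolism genes and 13.5% in all tested genes with a window. AGTTCA was in 2 of the 13 (15.4%), against 18.5% of the 54. The 13 were picked by their levels in these same livers, and the part of any receptor was not tested. The motif AGGTCA was also in 6 of the 15 interferon-response genes with a window that were called higher (40%) and in 1 of the 21 tested and not called (4.76%).

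Several glutathione transferases were lower as well. Of 37 tested glutathione and NRF2 target genes, 26 were negative and 5 were called, all lower (Gsta2, Gstm3, Gstm1, Gstm2 and Nfe2l2; median −0.20), which is 13.5%, against 8.00% of all genes lower and 12.6% called in either direction. With offsets 6 were lower, the same 5 and Gstm6 (16.2%, against 1.24%). With control 1 among 12 livers the median was −0.33, or −0.14 without scaling factors. In scaled CPM control 1 had the highest sum of the list, 22000 against 13300 to 15000 CPM in the other 5 livers. That sum is raised by the low TMM factor of control 1 and is not a share of all counts. Gstm3, a mu class transferase, stood at 13.4, 16.5 and 19.6 CPM in EE livers, against 82.2, 61.3 and 54.6 CPM in control livers. For Gstm3 the log2 fold change was −1.81 ± 0.16 SE (adjusted p = 0.00446, at most 0.0233 with any 1 liver left out). With offsets Gstm3 had −2.04 (adjusted p = 0.00214), and with control 1 among all 12 livers −2.0 (adjusted p = 0.0953). The MASH livers were split, at 20.5, 19.99 and 55.4 CPM, with MASH 3 at the control level. Gstm1 stood at 809, 760.4 and 884 CPM in EE livers, against 3800.0, 1336 and 1336 CPM in control livers. For Gstm1 the log2 fold change was −0.71 ± 0.11 SE (adjusted p = 0.0108, lost without control 2 or control 3, with an adjusted p up to 0.088). With offsets Gstm1 had −0.94 (adjusted p = 0.0166), and with control 1 among all 12 livers −1.40 (adjusted p = 0.164). Members of this family are close copies, and counts may be shared among them.

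Of the genes of lipid synthesis, Elovl6, Acly and Acacb were called lower in EE livers, a share near that of all genes without offsets. Of 30 tested genes of fatty acid and triglyceride synthesis, 3 were lower (Elovl6, Acly and Acacb, each also with offsets) and 1 was higher (median −0.10). The shares were 10% lower and 3.33% higher, against 8.00% and 4.64% of all genes, and with offsets 10% lower, against 1.24%. Acly, which makes cytosolic acetyl-CoA from citrate, stood at 198, 169.8 and 270.1 CPM in EE livers, against 51.8, 480.0 and 379.6 CPM in control livers. For Acly the log2 fold change was −1.02 ± 0.21 SE (adjusted p = 0.0276, lost without EE 1, control 2 or control 3, with an adjusted p up to 0.146). With offsets Acly had −1.03 (adjusted p = 0.0433), and with control 1 among all 12 livers −0.52 (adjusted p = 0.689). Control 1 lay below every EE liver for this gene and control 2 and control 3 above, and the MASH livers stood at 302, 285 and 351 CPM. Fasn, which makes palmitate, stood at 418, 206 and 488 CPM in EE livers, against 252, 884 and 843 CPM in control livers, and the desaturase Scd1 at 5577, 1606 and 2842 CPM in EE livers, against 3747, 9977 and 9542 CPM in control livers. For these the EE livers spread widely and control 1 lay among them, and neither passed (adjusted p = 0.0924 and 0.14). Nr1h3, the oxysterol receptor LXR alpha, stood at 112, 110.0 and 119 CPM in EE livers, against 73.3, 79.3 and 76.1 CPM in control livers, higher in each EE liver than in any control. For Nr1h3 the log2 fold change was 0.54 ± 0.10 SE (adjusted p = 0.0145, lost without control 2 or control 3, with an adjusted p up to 0.148). With offsets Nr1h3 had 0.32 (adjusted p = 0.0959), and with control 1 among all 12 livers 0.57 (adjusted p = 0.182).

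Of the genes of fat storage, 3 were called, all higher, and Cidec, Plin2, Cd36 and Pparg did not pass. Of 26 tested lipid droplet and fatty acid uptake genes, Slc27a2, Cideb and Lipe were higher (11.5%, against 4.64% of all genes; median 0.40) and 0 with offsets (median 0.28). Cidec, which fuses lipid droplets, stood at 3.85, 2.18 and 7.45 CPM in EE livers, against 0.101, 1.99 and 1.88 CPM in control livers (adjusted p = 0.162), with 13.2, 39.4 and 55.8 CPM in MASH livers. Each EE liver exceeded each control in Cidec and lay below each MASH liver. The droplet coat protein Plin2 stood at 694, 421 and 717 CPM in EE livers, against 115, 423 and 364 CPM in control livers (adjusted p = 0.131), with 729.8, 706 and 971 CPM in MASH livers. The fatty acid transporter Cd36 stood at 45.7, 16.7 and 44.4 CPM in EE livers, against 27.5, 42.4 and 54.8 CPM in control livers (adjusted p = 0.575), with 131, 98.2 and 139 CPM in MASH livers. EE 2 was the lowest EE liver in each of these 3 genes, and for Plin2 it lay at the level of control 2. Pparg, a nuclear receptor of fat storage, stood at 7.39, 5.34 and 6.81 CPM in EE livers, against 7.04, 7.82 and 6.24 CPM in control livers (adjusted p = 0.738), with 9.98, 18.5 and 16.9 CPM in MASH livers. Gpnmb, a marker of lipid-laden macrophages, did not pass the low-count filter in the 5 livers, at 0.565, 0.49 and 0.289 CPM in EE livers, against 0, 0.0846 and 0.355 CPM in control livers, with 2.55, 2.93 and 8.43 CPM in MASH livers.

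Fatty acid oxidation leaned higher in EE livers. Of 42 tested genes of oxidation and ketogenesis, 35 were positive and 15 were called, all higher (35.7%, against 4.64% of all genes; median 0.41, and 0.58 with control 1 among 12 livers). With offsets the median was 0.30 and 2 were called (4.76%, against 1.74%), Decr1 and Hadhb, of which Decr1 was called in both. Decr1, which removes double bonds of unsaturated fatty acids, stood at 215, 223 and 260.0 CPM in EE livers, against 76.3, 144 and 166 CPM in control livers. For Decr1 the log2 fold change was 0.58 ± 0.12 SE (adjusted p = 0.0251, lost without EE 3, control 2 or control 3, with an adjusted p up to 0.179). With offsets Decr1 had 0.73 (adjusted p = 0.0443), and with control 1 among all 12 livers 0.85 (adjusted p = 0.166). All EE livers were above all controls, and all MASH livers stood at 215 CPM. Acadvl, the first enzyme of mitochondrial oxidation of long chains, stood at 492, 489 and 562 CPM in EE livers, against 231, 353 and 379 CPM in control livers. For Acadvl the log2 fold change was 0.49 ± 0.11 SE (adjusted p = 0.0311, lost without EE 2, EE 3, control 2 or control 3, with an adjusted p up to 0.203). With offsets Acadvl had 0.29 (adjusted p = 0.161), and with control 1 among all 12 livers 0.68 (adjusted p = 0.213). Ech1, another oxidation enzyme, stood at 349, 344 and 394 CPM in EE livers, against 301, 206 and 238 CPM in control livers. For Ech1 the log2 fold change was 0.70 ± 0.12 SE (adjusted p = 0.0131, lost without control 2 or control 3, with an adjusted p up to 0.115). With offsets Ech1 had 0.46 (adjusted p = 0.0686), and with control 1 among all 12 livers 0.54 (adjusted p = 0.241). Neither passed with offsets, although all EE livers were above all controls. Vnn1, induced through PPAR alpha, stood at 96.4, 63.3 and 105 CPM in EE livers, against 36.6, 33 and 43 CPM in control livers, with 117, 109 and 134 CPM in MASH livers. For Vnn1 the log2 fold change was 1.21 ± 0.24 SE (adjusted p = 0.0309, lost without EE 1, EE 3, control 2 or control 3, with an adjusted p up to 0.159). With offsets Vnn1 had 1.29 (adjusted p = 0.0649), and with control 1 among all 12 livers 1.23 (adjusted p = 0.266). Here EE 1 and EE 3 came close to the MASH livers. Without scaling factors the list median was 0.21, with the median of all genes at −0.20, and 4 genes were higher and 1 lower.

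Lipoprotein genes moved in both directions. Of 23 tested genes, 8 were higher (Apoa1, Apoa5, Apoc3, Apoc4, Apoe, Scarb1, Lcat and Angptl4) and 2 lower, Apob among them (median 0.39), which is 34.8% higher and 8.7% lower, against 4.64% and 8.00% of all genes. The median was 0.06 with 12 livers, or 0.28 without scaling factors. Control 1 had 102000 scaled CPM over the list, raised by its TMM factor, against 35700 to 49900 CPM in the other 5 livers. With offsets 3 were higher (Scarb1, Apoc4 and Angptl4), 13% against 1.74%. Angptl4, which blocks lipoprotein lipase, stood at 151, 193 and 211 CPM in EE livers, against 115, 105 and 99.9 CPM in control livers. For Angptl4 the log2 fold change was 0.85 ± 0.15 SE (adjusted p = 0.0141, lost without control 2 or control 3, with an adjusted p up to 0.111). With offsets Angptl4 had 0.77 (adjusted p = 0.0375), and with control 1 among all 12 livers 0.80 (adjusted p = 0.27). MASH livers lay below the controls, at 71.6, 62.7 and 55.9 CPM, so the EE livers were above both other groups. Scarb1, the HDL receptor, stood at 196, 203 and 196 CPM in EE livers, against 90.2, 132 and 138 CPM in control livers. For Scarb1 the log2 fold change was 0.56 ± 0.10 SE (adjusted p = 0.0136, lost without control 2 or control 3, with an adjusted p up to 0.122). With offsets Scarb1 had 0.53 (adjusted p = 0.0369), and with control 1 among all 12 livers 0.73 (adjusted p = 0.15). Apob, the structural protein of secreted VLDL, stood at 2099.5, 1752 and 2007 CPM in EE livers, against 2291, 3659.8 and 4010.1 CPM in control livers, from a long transcript of 13934 bases. For Apob the log2 fold change was −0.98 ± 0.13 SE (adjusted p = 0.00692, lost without control 3, with an adjusted p up to 0.0564). With offsets Apob had −0.38 (adjusted p = 0.153), and with control 1 among all 12 livers −0.77 (adjusted p = 0.246). Apoa1, the main HDL protein, stood at 8779, 10954 and 8834 CPM in EE livers, against 21502, 4858 and 5838 CPM in control livers. Control 1 was far above all other livers on this scale, which its TMM factor raises. For Apoa1 the log2 fold change was 0.83 ± 0.16 SE (adjusted p = 0.0173, lost without control 2 or control 3, with an adjusted p up to 0.122). With offsets Apoa1 had 0.57 (adjusted p = 0.0852), and with control 1 among all 12 livers −0.17 (adjusted p = 0.899). Angptl8, an insulin-induced lipase regulator, stood at 22.7, 8.11 and 5.48 CPM in EE livers, against 268, 76.3 and 74.5 CPM in control livers and did not pass (adjusted p = 0.067 with 12 livers and 0.0791 with 5), with 17, 18.7 and 14.6 CPM in MASH livers. Every control was above every EE liver, control 1 most of all. Apoa4, which rises in fatty liver, stood at 578, 196 and 472 CPM in EE livers, against 152, 128 and 186 CPM in control livers (adjusted p = 0.168), with 1042, 1186 and 2031 CPM in MASH livers.

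Sterol genes called in the 5 livers were split between higher and lower. Of 26 tested cholesterol synthesis and uptake genes, Msmo1, Nsdhl and Mvk were higher and Insig1, Stard4 and Sc5d lower, and Nsdhl alone was called with offsets. The shares called were 11.5% in each direction, against 4.64% higher and 8.00% lower over all genes. Of the 26, 18 were positive and the median was 0.12, or −0.07 without scaling factors, and with control 1 among 12 livers 20 were positive, with a median of 0.46. With 12 livers 12 of the 26 had every EE liver above every control, against 13.7% of all genes. Another 2 had every EE liver below, against 13.5%, and 0 were called. Of 25 bile acid genes, 2 were higher (8%, against 4.64%) and 3 lower (12%, against 8.00%), and 0 passed with offsets. Slco1a4, an organic anion transporter called lower, stood at 16, 6.04 and 10.04 CPM in EE livers, against 88.5, 42.3 and 59.3 CPM in control livers. For Slco1a4 the log2 fold change was −2.25 ± 0.41 SE (adjusted p = 0.0354, lost without EE 3, control 2 or control 3, with an adjusted p up to 0.217). With offsets Slco1a4 had −1.82 (adjusted p = 0.0804), and with control 1 among all 12 livers −2.56 (adjusted p = 0.0953). Slco1a4 was below every control in every EE liver, and the MASH livers stood at 34.8, 14.3 and 29.2 CPM. Cyp7a1, the rate-limiting enzyme of bile acid synthesis, stood at 25.9, 82.9 and 74 CPM in EE livers, against 11.2, 100.2 and 117 CPM in control livers (adjusted p = 0.361).

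**Figure D3:**
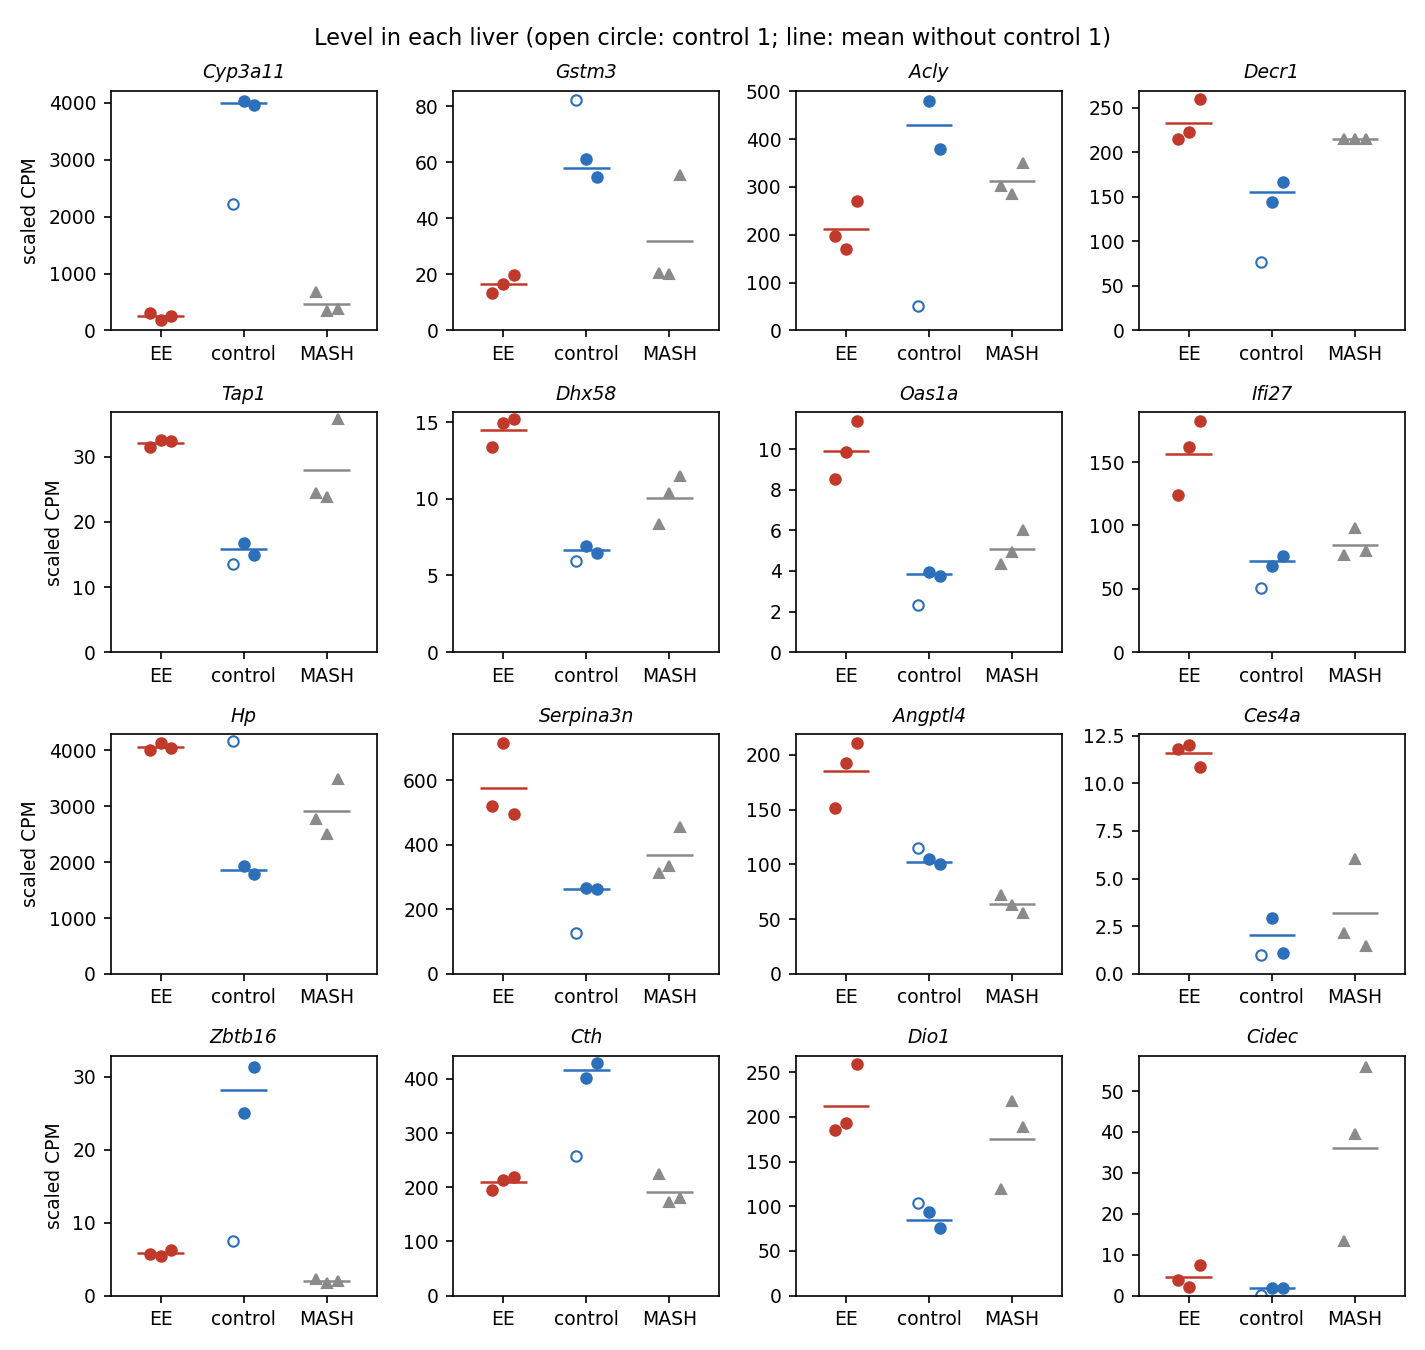
Level of 16 genes in each liver (scaled CPM, linear axes from 0) for EE, control and MASH livers, with control 1 as an open circle and the group mean without control 1 as a line. EE and control 2 and 3 do not overlap in any panel, while control 1 leaves the other controls in Acly, Hp, Zbtb16 and Cth, among others.

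Many interferon-response genes were higher in EE livers. Of 48 tested genes, 37 were positive and 19 were called, all higher (39.6%, against 4.64% of all genes), with a median of 0.38. With offsets 13 were higher (27.1%, against 1.74%), 12 of them in both, and the median was 0.49. With control 1 in the fit of 12 livers the median was 0.45 and 0 passed. Every EE liver was above every control in 23 of the 48, against 13.7% of all genes. Without control 1 this held in 28 of the 48, against 24.3% of all genes. Without scaling factors 13 were higher, the median being 0.20 with −0.20 for all genes. Tap1, which loads peptides onto MHC class I, stood at 31.5, 32.5 and 32.4 CPM in EE livers, against 13.6, 16.8 and 14.9 CPM in control livers. For Tap1 the log2 fold change was 1.02 ± 0.11 SE (adjusted p = 0.00457, lost without control 3, with an adjusted p up to 0.0529). With offsets Tap1 had 0.92 (adjusted p = 0.0183), and with control 1 among all 12 livers 1.09 (adjusted p = 0.0656). The EE livers lay close together and above every control, and the MASH livers stood at 24.5, 23.9 and 35.7 CPM. Dhx58, a regulator of viral RNA sensing, stood at 13.3, 15 and 15.2 CPM in EE livers, against 5.93, 6.89 and 6.45 CPM in control livers. For Dhx58 the log2 fold change was 1.12 ± 0.14 SE (adjusted p = 0.00648, lost without control 3, with an adjusted p up to 0.0608). With offsets Dhx58 had 0.92 (adjusted p = 0.0272), and with control 1 among all 12 livers 1.17 (adjusted p = 0.0661). The MASH livers lay between the groups, at 8.37, 10.4 and 11.5 CPM. Oas1a, an oligoadenylate synthetase that switches on RNA decay, stood at 8.52, 9.86 and 11.4 CPM in EE livers, against 2.31, 3.97 and 3.76 CPM in control livers. For Oas1a the log2 fold change was 1.35 ± 0.19 SE (adjusted p = 0.00847, lost without control 2 or control 3, with an adjusted p up to 0.0703). With offsets Oas1a had 1.17 (adjusted p = 0.0296), and with control 1 among all 12 livers 1.54 (adjusted p = 0.112). Ifi27 stood at 124, 162 and 183 CPM in EE livers, against 50.8, 68.1 and 75.8 CPM in control livers. For Ifi27 the log2 fold change was 1.12 ± 0.17 SE (adjusted p = 0.0103, lost without control 2 or control 3, with an adjusted p up to 0.0836). With offsets Ifi27 had 0.89 (adjusted p = 0.0411), and with control 1 among all 12 livers 1.27 (adjusted p = 0.0656). Control 1 was the lowest liver for both of these, and the MASH livers stood at 4.35, 4.93 and 6.01 CPM for Oas1a. The other called genes include the transcription factors Irf7 and Irf9, the GTPases Igtp and Irgm2, the immunoproteasome subunits Psmb8 and Psmb9, and Isg15, Ifi35, Oasl1, Oasl2, Oas1g, Oas3, Xaf1 and Zbp1. Reads of the neighbouring Oas1 genes may be shared among them. The paired GAAA motif shown for Oas1a was in the window of 15 of 36 tested members (41.7%), in 3 of 15 called members (Isg15, Oas1a and Oas1g) and in 12 of 21 members not called.

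**Figure D4:**
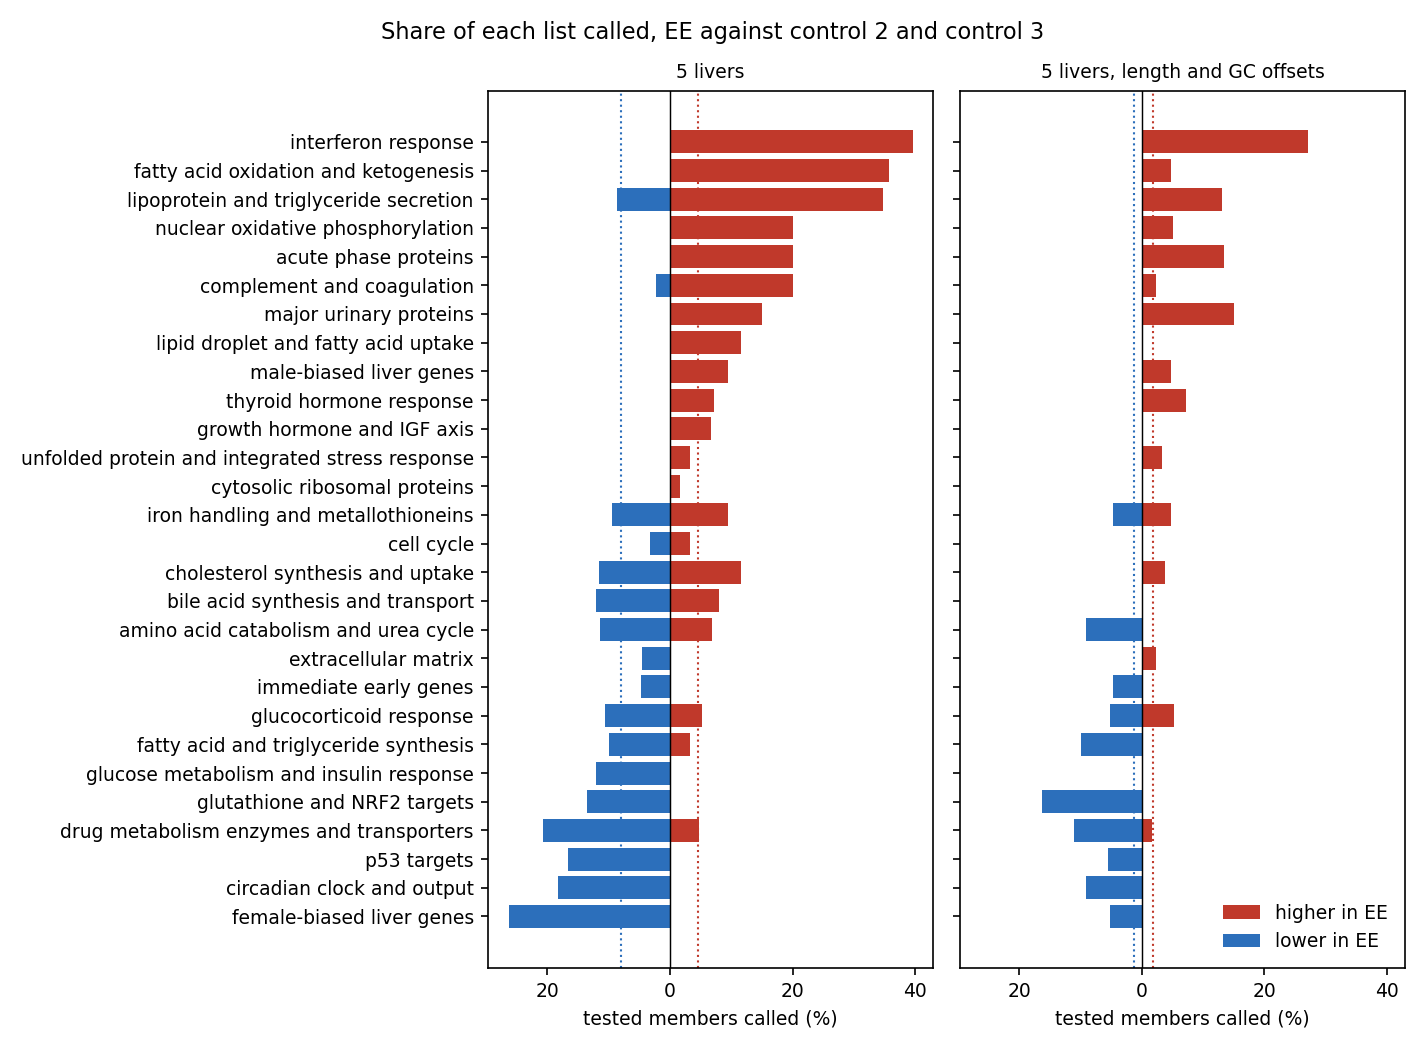
Percentage of the tested members of each functional list, cell type markers left out, called higher (red, right) or lower (blue, left) in EE livers against control 2 and control 3, without (left panel) and with (right panel) length and GC offsets, dotted lines marking the percentage over all genes. Among the functional lists with a call, which are those plotted, interferon response has the highest share called higher in both panels, 39.6% and 27.1%, and fatty acid oxidation is at 4.76% with offsets.

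Several acute phase proteins were higher. Of 30 tested acute phase genes, 26 were positive and 6 were called, all higher (20%, against 4.64% of all genes; median 0.52), and with offsets 4 (Itih3, Cp, Hp and Serpina3n; 13.3%, against 1.74%). Hp, haptoglobin, stood at 4006, 4124 and 4038 CPM in EE livers, against 4173, 1937 and 1783 CPM in control livers. For Hp the log2 fold change was 1.12 ± 0.12 SE (adjusted p = 0.00457, at most 0.0461 with any 1 liver left out). With offsets Hp had 0.88 (adjusted p = 0.0238), and with control 1 among all 12 livers 0.62 (adjusted p = 0.443). Control 1 lay at the EE level and the other controls at less than that of any MASH liver (2764, 2508 and 3489.7 CPM in MASH livers). Serpina3n, a protease inhibitor, stood at 519.6, 714 and 496 CPM in EE livers, against 126, 265 and 262 CPM in control livers. For Serpina3n the log2 fold change was 1.13 ± 0.17 SE (adjusted p = 0.0103, lost without control 2 or control 3, with an adjusted p up to 0.0849). With offsets Serpina3n had 0.95 (adjusted p = 0.0398), and with control 1 among all 12 livers 1.40 (adjusted p = 0.0976). Itih3, an inhibitor chain bound to hyaluronan, stood at 833, 935 and 785 CPM in EE livers, against 319, 526 and 457 CPM in control livers. For Itih3 the log2 fold change was 0.79 ± 0.13 SE (adjusted p = 0.0112, lost without control 2 or control 3, with an adjusted p up to 0.11). With offsets Itih3 had 0.69 (adjusted p = 0.0411), and with control 1 among all 12 livers 0.97 (adjusted p = 0.128). All EE livers were above all controls in both, control 1 being lowest. Of 45 complement and coagulation genes, 9 were higher (20%, against 4.64%) and F8 lower (median 0.28), and with offsets C4bp alone was called (2.22%, near the 1.74% of all genes). C4bp, an inhibitor of complement, stood at 640.1, 646 and 688 CPM in EE livers, against 239.8, 497 and 487 CPM in control livers. For C4bp the log2 fold change was 0.42 ± 0.10 SE (adjusted p = 0.0364, lost without EE 2, EE 3, control 2 or control 3, with an adjusted p up to 0.25). With offsets C4bp had 0.90 (adjusted p = 0.0286), and with control 1 among all 12 livers 0.69 (adjusted p = 0.234). Of 28 tested chemokine, cytokine and inflammation genes, 0 were called with or without offsets (median −0.07).

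Major urinary proteins (Mup), pheromone carriers that male livers secrete in bulk, took 11.3%, 11.5% and 11.7% of the counts in EE livers, against 5.82%, 8.84% and 4.85% in control livers (exact permutation test, two-sided, p = 0.1 with and without control 1, the smallest possible in each). The shares did not overlap, and the MASH livers held 4.42%, 10.8% and 3.33%. These shares are of all counts, of which 34.9% in control 1 were mitochondrially encoded. In scaled CPM, the Mup genes summed to 114000, 118000 and 122000 in EE livers, against 115000, 81500 and 42600 in control livers. On that scale control 1 lay within the EE range. All 20 tested Mup genes were positive in the 5 livers (median 1.22), and 3 were called higher with and without offsets (Mup6, Mup13 and Mup16; 15%, against 4.64% and 1.74% of all genes). With control 1 among 12 livers 17 of the 20 were positive, the median was 0.77 and 0 were called. Mup6 stood at 6.72, 7.24 and 7.1 CPM in EE livers, against 0.603, 4.27 and 2.08 CPM in control livers. For Mup6 the log2 fold change was 1.13 ± 0.29 SE (adjusted p = 0.0413, lost without EE 1, EE 2, EE 3 or control 3, with an adjusted p up to 0.221). With offsets Mup6 had 1.44 (adjusted p = 0.0443), and with control 1 among all 12 livers 1.53 (adjusted p = 0.323). The abundant Mup11 stood at 9196, 12910.0 and 11515 CPM in EE livers, against 6818, 5006 and 1835 CPM in control livers and did not pass (adjusted p = 0.0785), while Mup10 stood at 502, 478 and 450.2 CPM in EE livers, against 7172, 497 and 377 CPM in control livers, with control 1 far above all others. Mup genes are near copies of each other, so counts of single members are uncertain. Of 42 male-biased liver genes, 35 were positive and 4 called, all higher (Spp2, Igfals, Serpina12 and Ces4a; 9.52%, against 4.64% of all genes; median 0.44), and with offsets Serpina12 and Ces4a (4.76%, against 1.74%). Ces4a, a carboxylesterase, stood at 11.8, 12 and 10.9 CPM in EE livers, against 1.0, 2.92 and 1.12 CPM in control livers, with 2.13, 6.02 and 1.44 CPM in MASH livers. For Ces4a the log2 fold change was 2.49 ± 0.34 SE (adjusted p = 0.00965, at most 0.0379 with any 1 liver left out). With offsets Ces4a had 2.32 (adjusted p = 0.032), and with control 1 among all 12 livers 2.72 (adjusted p = 0.221). Each EE liver was above every control and every MASH liver. Of 19 female-biased genes, 5 were lower (Cyp2b10, Nipal1, Ntrk2, Prom1 and Fmo2; 26.3%, against 8.00% of all genes; median −0.23, and −0.53 with control 1 among 12 livers), of which Cyp2b10 alone passed with offsets. Ntrk2, a neurotrophin receptor, stood at 0.565, 0.163 and 0.404 CPM in EE livers, against 0.603, 1.99 and 1.37 CPM in control livers, with 0.993, 2.38 and 3.75 CPM in MASH livers. For Ntrk2 the log2 fold change was −2.14 ± 0.48 SE (adjusted p = 0.0293, lost without EE 2, EE 3, control 2 or control 3, with an adjusted p up to 0.198). With offsets Ntrk2 had −1.84 (adjusted p = 0.0797), and with control 1 among all 12 livers −1.86 (adjusted p = 0.169).

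Single genes tied to glucocorticoids, the clock and thyroid hormone were called, while their lists leaned higher, lower and lower in the 5 livers without offsets. Of 19 tested glucocorticoid response genes, 13 were positive (median 0.28, and 0.50 with control 1 among 12 livers), and Angptl4 was called higher (5.26%, against 4.64% of all genes) and Zbtb16 and Nr3c1 lower (10.5%, against 8.00%). Zbtb16, a transcription factor induced by glucocorticoids, stood at 5.75, 5.5 and 6.29 CPM in EE livers, against 7.44, 25 and 31.4 CPM in control livers. For Zbtb16 the log2 fold change was −2.27 ± 0.14 SE (adjusted p = 0.00117, at most 0.0233 with any 1 liver left out). With offsets Zbtb16 had −2.25 (adjusted p = 0.00121), and with control 1 among all 12 livers −1.87 (adjusted p = 0.15). Control 1 was just above the EE livers, and the MASH livers were lower still, at 2.22, 1.76 and 2.03 CPM. Glcci1, a glucocorticoid-induced transcript, stood at 1.49, 2.01 and 1.5 CPM in EE livers, against 3.12, 2.28 and 1.57 CPM in control livers, overlapping (adjusted p = 0.668), with 0.0946, 0.126 and 0.0781 CPM in MASH livers. Of 22 tested clock and output genes, 4 were lower (Bhlhe40, Bhlhe41, Nr1d2 and Rora; 18.2%, against 8.00% of all genes), of which the first pair passed with offsets. The clock list had 6 positive values and a median of −0.14, but 13 positive of 23 and a median of 0.05 with control 1 among 12 livers. Bhlhe41, a clock repressor, stood at 2.0, 3.38 and 1.85 CPM in EE livers, against 3.32, 9.05 and 7.77 CPM in control livers. For Bhlhe41 the log2 fold change was −1.80 ± 0.27 SE (adjusted p = 0.00993, lost without control 2 or control 3, with an adjusted p up to 0.0725). With offsets Bhlhe41 had −1.56 (adjusted p = 0.0328), and with control 1 among all 12 livers −1.49 (adjusted p = 0.205). Its partner Bhlhe40 stood at 71.4, 109 and 123 CPM in EE livers, against 45, 229 and 212 CPM in control livers. For Bhlhe40 the log2 fold change was −1.13 ± 0.22 SE (adjusted p = 0.0261, lost without EE 2, control 2 or control 3, with an adjusted p up to 0.142). With offsets Bhlhe40 had −1.19 (adjusted p = 0.0428), and with control 1 among all 12 livers −0.68 (adjusted p = 0.504). Control 1 lay within the EE range for Bhlhe41 and below it for Bhlhe40, but above every EE liver for Nr1d2 and Rora, and the hour of collection was not given in the labels. Dio1, the deiodinase that activates thyroid hormone and a textbook target of its receptor, stood at 185, 194 and 259 CPM in EE livers, against 104, 93.6 and 75.3 CPM in control livers, above every control in every EE liver. For Dio1 the log2 fold change was 1.33 ± 0.18 SE (adjusted p = 0.00847, lost without control 3, with an adjusted p up to 0.0653). With offsets Dio1 had 1.16 (adjusted p = 0.0296), and with control 1 among all 12 livers 1.23 (adjusted p = 0.138). Dio1 was the only member called of 14 tested thyroid hormone response genes (7.14%, against 4.64%). Of these, 4 were positive (median −0.20), but with offsets 7 were positive and 7 negative (median −0.03). The MASH livers stood at 119, 218 and 188 CPM for Dio1.

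Genes of amino acid breakdown were called in both directions. Of 44 tested genes of amino acid catabolism and the urea cycle, 5 were lower (11.4%, against 8.00%) and 3 higher (6.82%, against 4.64%), with a median of −0.01, and 4 were lower with offsets (Cth, Gls2, Acmsd and Oat; 9.09%, against 1.24%). Cth, which makes cysteine, stood at 195, 214 and 219 CPM in EE livers, against 258, 402 and 430.0 CPM in control livers. For Cth the log2 fold change was −0.99 ± 0.10 SE (adjusted p = 0.00457, at most 0.0448 with any 1 liver left out). With offsets Cth had −0.88 (adjusted p = 0.0242), and with control 1 among all 12 livers −0.79 (adjusted p = 0.161). Gls2, the liver glutaminase, stood at 198, 241 and 221 CPM in EE livers, against 449.8, 339.6 and 336 CPM in control livers. For Gls2 the log2 fold change was −0.62 ± 0.11 SE (adjusted p = 0.015, lost without control 2 or control 3, with an adjusted p up to 0.11). With offsets Gls2 had −0.82 (adjusted p = 0.0242), and with control 1 among all 12 livers −0.77 (adjusted p = 0.13). Every control was above every EE liver for Cth and Gls2, and the MASH livers stood at 224, 172 and 180.3 CPM for Cth and 170.4, 183 and 232 CPM for Gls2, within or near the EE range. Oat, an ornithine aminotransferase of pericentral hepatocytes, stood at 538, 675 and 715 CPM in EE livers, against 969.5, 1016 and 1016 CPM in control livers. For Oat the log2 fold change was −0.66 ± 0.14 SE (adjusted p = 0.0225, lost without control 2 or control 3, with an adjusted p up to 0.135). With offsets Oat had −0.69 (adjusted p = 0.0475), and with control 1 among all 12 livers −0.64 (adjusted p = 0.313). Etnppl, a phospholyase of phosphoethanolamine, stood at 38.6, 25 and 38 CPM in EE livers, against 105, 106 and 113 CPM in control livers. For Etnppl the log2 fold change was −1.69 ± 0.18 SE (adjusted p = 0.00585, lost without control 3, with an adjusted p up to 0.0506). With offsets Etnppl had −1.39 (adjusted p = 0.032), and with control 1 among all 12 livers −1.67 (adjusted p = 0.132). The 15 periportal markers had 12 negative values and 2 called lower (Etnppl and Gls2; median −0.19), which is 13.3%, against 8.00% of all genes. Of 16 pericentral markers 4 were higher (25%, against 4.64%) and 1, Oat, lower (6.25%, against 8.00%; median 0.40). With offsets the pericentral call was Oat alone. Chac1, a glutathione-degrading enzyme of the integrated stress response, stood at 3.49, 8.28 and 5.94 CPM in EE livers, against 3.92, 0.93 and 0.964 CPM in control livers. It was the only call among 31 stress response genes (3.23%, against 4.64% of all genes higher). For Chac1 the log2 fold change was 2.63 ± 0.41 SE (adjusted p = 0.0112, lost without control 2 or control 3, with an adjusted p up to 0.0957). With offsets Chac1 had 2.40 (adjusted p = 0.0356), and with control 1 among all 12 livers 1.69 (adjusted p = 0.234). Control 1 lay within the EE range for Chac1.

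Stress, growth and metal lists gave 0 to 4 calls each. Of 18 tested p53 targets 3 were lower, Mdm2, Gadd45a and Trp53inp1 (16.7%, against 8.00% of all genes), of which Mdm2 passed with offsets. Mdm2, the ligase that holds p53 in check, stood at 10.6, 10.8 and 9.87 CPM in EE livers, against 13.7, 17.1 and 18.4 CPM in control livers. For Mdm2 the log2 fold change was −0.77 ± 0.12 SE (adjusted p = 0.0107, lost without control 2 or control 3, with an adjusted p up to 0.108). With offsets Mdm2 had −0.70 (adjusted p = 0.032), and with control 1 among all 12 livers −0.65 (adjusted p = 0.262). Ccn1, a matricellular protein and immediate early gene, stood at 7.34, 5.72 and 5.66 CPM in EE livers, against 16.8, 11.1 and 11.1 CPM in control livers. It was the only call among 21 immediate early genes (4.76%, against 8.00% of all genes lower). For Ccn1 the log2 fold change was −0.83 ± 0.17 SE (adjusted p = 0.0224, lost without EE 2, EE 3, control 2 or control 3, with an adjusted p up to 0.149). With offsets Ccn1 had −1.02 (adjusted p = 0.032), and with control 1 among all 12 livers −1.05 (adjusted p = 0.166). Every control exceeded every EE liver for both. Of 21 tested iron and metal genes, Tfr2 and Steap3 were higher and Tfrc and Slc30a1 lower (9.52% each way, against 4.64% higher and 8.00% lower over all genes). Tfrc, the transferrin receptor, stood at 8.78, 3.81 and 7.33 CPM in EE livers, against 17.7, 18.9 and 18.6 CPM in control livers, below every control in every EE liver. For Tfrc the log2 fold change was −1.50 ± 0.30 SE (adjusted p = 0.0306, lost without EE 3, control 2 or control 3, with an adjusted p up to 0.167). With offsets Tfrc had −0.94 (adjusted p = 0.138), and with control 1 among all 12 livers −1.47 (adjusted p = 0.097). Slc30a1, a zinc exporter, stood at 27.3, 27.6 and 24.4 CPM in EE livers, against 15.8, 52.3 and 47.7 CPM in control livers, with control 1 below the EE livers. For Slc30a1 the log2 fold change was −0.92 ± 0.11 SE (adjusted p = 0.00544, at most 0.0463 with any 1 liver left out). With offsets Slc30a1 had −0.68 (adjusted p = 0.0296), and with control 1 among all 12 livers −0.55 (adjusted p = 0.472). Of 21 cytosolic heat shock genes 0 were called in any of these fits. Of 31 cell cycle genes Mcm7 was higher and Rrm2 lower (3.23% each way, against 4.64% higher and 8.00% lower over all genes).

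Among markers of other cells, 4 of Kupffer cells were called higher. Of 15 Kupffer cell markers, 12 were positive and 4 higher (Clec4f, Cd5l, C1qa and C1qb; 26.7%, against 4.64% of all genes; median 0.41), 0 with offsets, and the median with control 1 was 0.83. Clec4f, a lectin of Kupffer cells, stood at 141, 117 and 161 CPM in EE livers, against 21.5, 98.1 and 88.2 CPM in control livers. For Clec4f the log2 fold change was 0.58 ± 0.15 SE (adjusted p = 0.0389, lost without EE 1, EE 3, control 2 or control 3, with an adjusted p up to 0.25). With offsets Clec4f had 0.41 (adjusted p = 0.135), and with control 1 among all 12 livers 1.01 (adjusted p = 0.297). Of 13 tested lipid-associated macrophage markers, Apoe was higher and Cd9 lower (7.69% each way, against 4.64% higher and 8.00% lower over all genes). Trem2, the receptor that defines these cells, stood at 1.8, 0.926 and 1.04 CPM in EE livers, against 0.101, 0.296 and 0.507 CPM in control livers (adjusted p = 0.0628), with 1.42, 2.01 and 1.91 CPM in MASH livers. Each EE liver exceeded each control in Trem2, at levels of about 1 CPM. Of 44 extracellular matrix genes, 34 were negative and 2 called lower (Col1a1 and Col3a1; 4.55%, below the 8.00% of all genes; median −0.22), neither with offsets, where Fn1 was called higher. Col1a1, the main fibrillar collagen, stood at 5.24, 5.23 and 3.58 CPM in EE livers, against 11.3, 7.78 and 8.58 CPM in control livers, with 14.7, 10.7 and 22.1 CPM in MASH livers. For Col1a1 the log2 fold change was −0.80 ± 0.21 SE (adjusted p = 0.0442, lost without EE 2, EE 3, control 2 or control 3, with an adjusted p up to 0.255). With offsets Col1a1 had −0.73 (adjusted p = 0.107), and with control 1 among all 12 livers −0.97 (adjusted p = 0.548). Of 14 stellate cell markers 0 were called, and of 17 endothelial markers all were negative and 0 called (median −0.36). Summed, the endothelial markers stood at 399, 247 and 496 CPM in EE livers, against 187, 434 and 449 CPM in control livers. EE 3 was thus above every control in this sum, and EE 2 was the lowest EE liver. With offsets 3 of the endothelial markers were positive (median −0.28), and with control 1 among 12 livers 6 were (median −0.01). Cela1, an elastase, stood at 32.5, 39.6 and 29.1 CPM in EE livers, against 19.9, 15.1 and 12.6 CPM in control livers, although 7 of the acinar cell markers, Prss2, Cpa1 and Pnlip among them, were at 0 in all 6 livers. For Cela1 the log2 fold change was 1.28 ± 0.16 SE (adjusted p = 0.00648, lost without control 3, with an adjusted p up to 0.056). With offsets Cela1 had 1.03 (adjusted p = 0.0296), and with control 1 among all 12 livers 1.09 (adjusted p = 0.423).

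**Figure D5:**
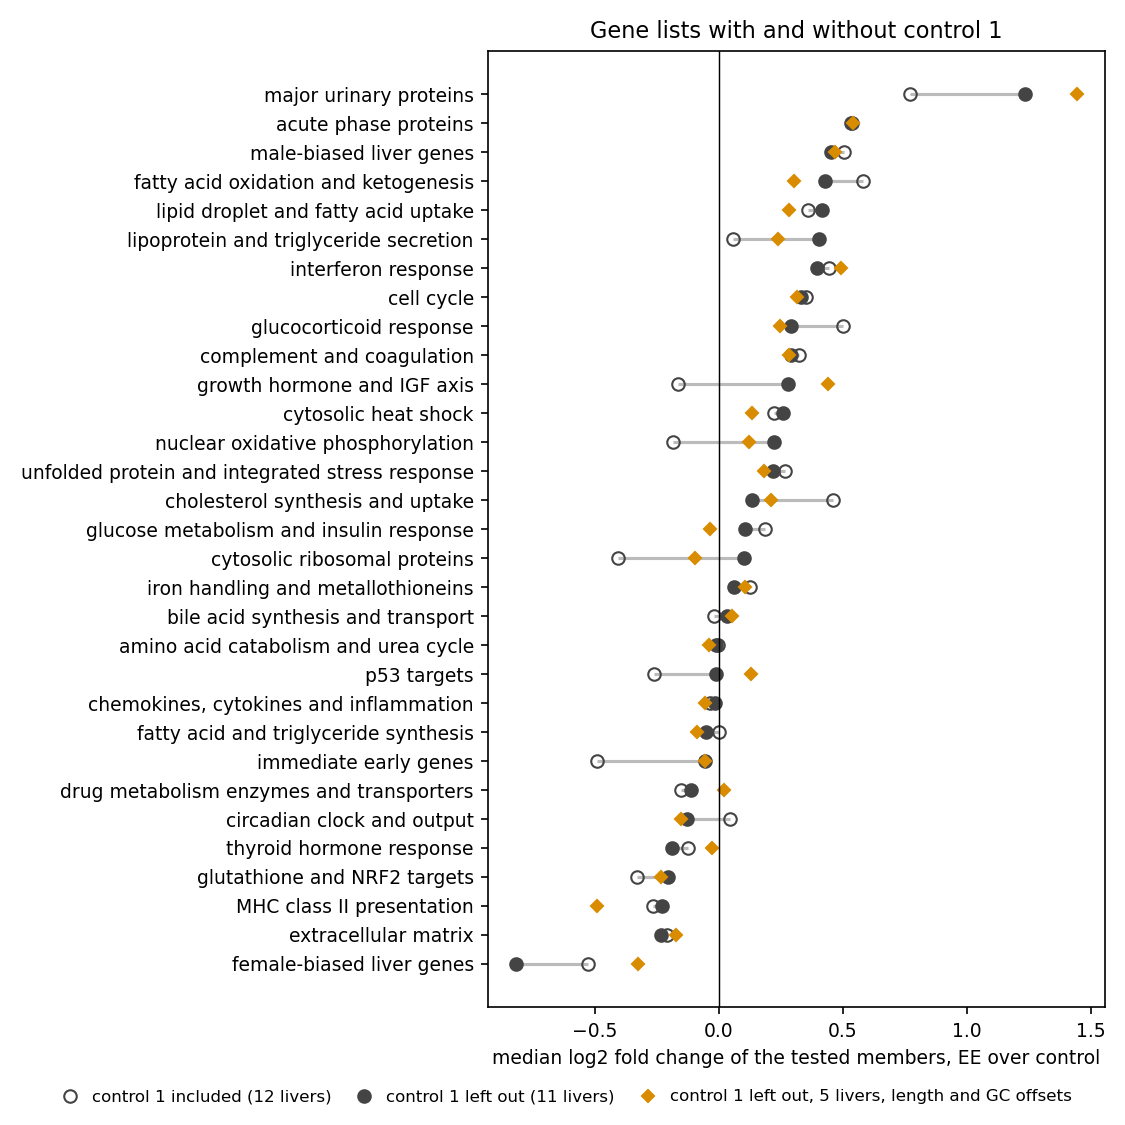
Median log2 fold change of EE over control for 31 gene lists, with control 1 (open), without it (filled) and for the 5 livers with length and GC offsets (orange). With TMM scaling, nuclear oxidative phosphorylation and ribosomal protein lists, among others, change sign when control 1 is left out, while acute phase and interferon medians stay between 0.40 and 0.54.

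With TMM scaling, some lists went the other way with control 1. The 60 tested nuclear genes of oxidative phosphorylation had a median of −0.18 with 12 livers and 0.22 without control 1, and 12 were called higher in the 5 livers (20%, against 4.64% of all genes), with 3 after offsets (5%, against 1.74%). Ndufa3, a subunit of complex I, stood at 53.9, 48 and 52.7 CPM in EE livers, against 247, 35.9 and 29.3 CPM in control livers, with control 1 far above all other livers. For Ndufa3 the log2 fold change was 0.66 ± 0.12 SE (adjusted p = 0.0172, lost without EE 3, control 2 or control 3, with an adjusted p up to 0.156). With offsets Ndufa3 had 0.42 (adjusted p = 0.0877), and with control 1 among all 12 livers −1.01 (adjusted p = 0.505). The 58 ribosomal protein genes had a median of −0.41 with control 1 and 0.10 without it. Without scaling factors these medians were −0.14 and −0.11, and those of the oxidative phosphorylation genes 0.09 and 0.02, so neither list changed sign. The growth hormone and IGF list had −0.16 with control 1 and 0.28 without it, and the clock list 0.05 and −0.13. Without scaling factors these were 0.11 and 0.08 for the first list and 0.05 and −0.35 for the second. For the 13 mitochondrially encoded genes the median was −2.98 with control 1 and −0.33 without it, with 0 called in either. In the 5 livers 0 were called without offsets, and with offsets 2 were called higher, mt-Atp8 and mt-Nd3 (15.4%, against 1.74% of all genes). In scaled CPM, however, 0 of the 13 had every EE liver above control 2 and control 3. In 5 of the 13 every EE liver was below both, so the higher calls rest on the offsets. The 6 tested erythroid markers had a median of −1.26 with control 1 and 0.58 without it, led by Hba-a1, a globin, at 104, 94.5 and 131 CPM in EE livers, against 1007, 61.2 and 83.1 CPM in control livers. Of the 26 genes fixed by name for this comparison, Cyp2c55 was the only member that passed with 12 or 11 livers. None of Fgf21, Elovl5, Ass1 and Nr1d1 passed in the 5 livers either (adjusted p = 0.468, 0.976, 0.0977 and 0.407).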

How the data were processed

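Bulk liver RNA was sequenced as read pairs of 150 bases with a stranded poly(A) kit on a NovaSeq X Plus, per the labels' protocols. The authors deposited 1 table of expected counts for 28036 genes in 12 livers (totals 17297864 to 21793311, 91.5% to 93.3% of the values whole), so 1 CPM stands for 17.3 to 21.8 counts. Read trimming with fastp and the genome GRCm39 are named in the submitters' processing notes. For the aligner, the counter, the annotation and the strand setting, nothing is given in the sources used here, so reads of overlapping, antisense or near-identical genes may be shared between them. All 12 columns were mapped by their names and 0 were left unused.

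Expected counts were rounded to whole numbers, genes were kept by filterByExpr, libraries were scaled by TMM, and EE was compared with control by the quasi-likelihood F test of edgeR 4.0.16 in R 4.3.3, with robust dispersions and Benjamini-Hochberg adjustment over all tested genes. The fits held all 12 libraries, 11 without control 1, or the 3 EE and 2 remaining control libraries. The last of these was planned as an alternative to the fit of 11 and not as a main result. Length and GC content were those of the longest GENCODE transcript of a gene, known for 95.5% of the genes tested with 12 livers. Offsets for them (natural splines with 4 degrees of freedom) and all fits with these offsets were added after the data were seen. DESeq2 1.42.0, limma voom (limma 3.58.1), other scalings and filters, a replicate block and leaving out each library were alternatives. The code was tested on simulated counts. CPM are scaled by TMM over all 12 libraries. List medians are over tested members, and all p-values of shares are two-sided exact permutation tests.

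The members and the 50 gene lists were chosen with earlier results of these data known. Genes are named by a fixed rule, which took up to 12 called genes per direction with a mean of at least 1 CPM and no overlap of the groups, the 4 members per list that had the lowest p, every list member called with 12 or 11 livers and 26 genes fixed by name. Eea1, and the list members named only to complete a count of calls in the 5 livers, were named after their values were seen. The labels say that the samples are separate livers and no more, so p-values measure the spread between these samples, which may be partly technical. Promoter sequences are from RefSeq (GRCm38.p6) and no coordinate of the count table was used.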

Additional observations from a re-analysis of the deposited data

How the results depend on the processing

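With all 12 livers (14 genes), relative log expression, upper quartile scaling, a filter at 1 CPM, a limit of 1 on the log2 fold change, removal of mitochondrial genes and the replicate block gave 13 to 17 genes. The count was 0 without scaling factors (757 at an unadjusted p below 0.05), 589 with DESeq2, 9 with voom, 2560 with voom quality weights, 117 with no filter, 36 without resmetirom 2, 77 without any resmetirom liver, 0 without the MASH livers and 1 with offsets. In the 6 EE and control livers alone it was 0, also 0 with offsets and 0 with the block. Leaving out 1 library gave 0 to 69.

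Without control 1 (13 genes) the count was 0 without scaling factors (1197 at an unadjusted p below 0.05), 471 with DESeq2, 2722 with voom quality weights, 633 with no filter, 589 without resmetirom 2, 1971 without any resmetirom liver, 0 without the MASH livers, 1 with offsets, 1682 in the 5 EE and control livers and 382 there with offsets. Leaving out a further library gave 0 to 589. In the 5 livers (1682 genes) it was 2917 with no filter, 382 with offsets, 398 past a log2 fold change of 1 in size, and 70 to 2043 with 1 liver left out. DESeq2 gave 2213 and voom 1847.

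Same-numbered EE and control livers correlated at 0.08, −0.04 and 0.14 in their deviations from the group means, against −0.135 to 0.101 for differently numbered livers. The control mean includes control 1, which stood apart, so this check cannot tell whether the numbers pair the samples. With the replicate block the counts were 17 with 12 livers, 114 with 11 and 2067 with 5. Among genes named here, Apoa1 (0.83) and Ndufa3 (0.66) were higher in the 5 livers and had −0.17 and −1.01 with 12. Of 46 list medians, 12 moved by more than the spread when control 1 was left out, 5 without scaling factors and 2 with offsets. The cause of these changes was not tested. Calls with 5 livers rest on 2 controls, and the precision of genes under 1 CPM is limited by counts.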
